A study of Mus musculus with 8 samples.

Results

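The transcripts described here are 10 genes that mark T cells and natural killer (NK) cells, read in cultures of adherent peritoneal macrophages. They were chosen by name, with earlier results of these data known. The set holds the CD3 chains Cd3d, Cd3e and Cd3g, the kinase Lck, the co-receptor chain Cd8a, the adhesion receptor Cd2, the granzymes Gzma and Gzmb, the cytokine gene Ifng and the NK receptor gene Ncr1. They are 10 of the 37018 genes and transcripts on the array, and each was read by its brightest probe over all arrays. All 10 passed the filter on intensity (a mean log2 intensity of at least 6), as did 36947 of the 37018.

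The study compared peritoneal macrophages of C57BL/6 mice that lack the proprotein convertase FURIN in myeloid cells (LysMCre-fur fl/fl, called KO) with those of littermates (WT). Cells had adhered for 24 h and had been washed to remove nonadherent cells, then were left unstimulated or received 1 μg/ml lipopolysaccharide (LPS), a bacterial ligand of Toll-like receptor 4, for 1, 4 or 24 h. Each of the 8 arrays held 1 KO and 1 WT sample in opposite dyes, so each genotype had 2 biological replicates at each of the 4 times. In replicate 1 the KO sample was labelled with Cy5, and in replicate 2 with Cy3, so the replicate number and the dye orientation cannot be told apart. Cre was driven by the LysM promoter, which is active in macrophages and neutrophils, so T and NK cells were not the cells in which the gene was to be deleted. The age of the mice and whether replicates came from separate mice are not given for the arrays. P-values measure the spread between these samples. Fits with a replicate block leave the mean difference between the 2 replicates out of that spread.

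A T cell recognises antigen through its receptor, whose signal is carried into the cell by the CD3 chains and started by the kinase LCK. NK cells and CD8 T cells kill target cells with granzymes, proteases that they release from granules, and both secrete interferon gamma, which activates macrophages. Interleukin-12 and interleukin-18 from macrophages are known inducers of Ifng in NK and T cells. The washed peritoneal culture can hold lymphocytes and mast cells beside macrophages.

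The promoter windows of 6 of these genes are shown because the 3 CD3 genes encode chains of 1 receptor complex and Ifng, Gzma and Gzmb were the 3 that rose with LPS. They are the 250 bases before the RefSeq transcription start, on build GRCm38.p6, read 5′ to 3′ on the gene's strand, and 9 of the 10 genes had an entry (not Cd2). Capitals mark every match, on either strand, to letters that RUNX factors bind (TGTGGT) or that form the core of NFAT sites (GGAAA). They also mark letters of AP-1 sites (TGANTCA), of STAT sites (TTCNNNGAA) and of the TATA box (TATAAA). Where motifs overlap, the capitals run together.
Cd3g, chr9:44980432-44980681, minus strand: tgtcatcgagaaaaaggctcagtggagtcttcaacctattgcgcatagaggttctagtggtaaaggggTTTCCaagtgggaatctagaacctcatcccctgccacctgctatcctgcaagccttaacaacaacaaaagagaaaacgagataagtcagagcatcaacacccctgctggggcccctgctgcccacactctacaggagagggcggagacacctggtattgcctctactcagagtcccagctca
Cd3d, chr9:44981536-44981785, plus strand: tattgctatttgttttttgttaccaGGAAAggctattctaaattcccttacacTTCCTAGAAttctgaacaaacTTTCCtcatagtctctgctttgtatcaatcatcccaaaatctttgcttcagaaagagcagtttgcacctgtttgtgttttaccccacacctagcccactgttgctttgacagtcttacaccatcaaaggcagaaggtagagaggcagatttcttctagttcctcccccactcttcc
Cd3e, chr9:45009612-45009861, minus strand: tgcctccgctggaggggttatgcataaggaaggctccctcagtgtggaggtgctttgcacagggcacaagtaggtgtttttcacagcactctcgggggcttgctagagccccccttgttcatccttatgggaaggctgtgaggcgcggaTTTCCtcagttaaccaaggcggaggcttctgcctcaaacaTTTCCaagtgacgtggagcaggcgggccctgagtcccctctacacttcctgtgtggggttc
Gzma, chr13:113100982-113101231, minus strand: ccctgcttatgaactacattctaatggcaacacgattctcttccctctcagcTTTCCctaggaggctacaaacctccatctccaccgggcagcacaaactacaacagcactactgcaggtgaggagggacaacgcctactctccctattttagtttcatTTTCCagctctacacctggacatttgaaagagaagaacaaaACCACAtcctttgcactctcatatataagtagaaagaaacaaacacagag
Gzmb, chr14:56262335-56262584, minus strand: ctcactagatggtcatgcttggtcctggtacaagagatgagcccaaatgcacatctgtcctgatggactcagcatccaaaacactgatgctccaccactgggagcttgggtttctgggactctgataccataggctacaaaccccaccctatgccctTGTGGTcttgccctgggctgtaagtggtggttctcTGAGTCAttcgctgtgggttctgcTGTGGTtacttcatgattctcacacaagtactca
Ifng, chr10:118440796-118441045, plus strand: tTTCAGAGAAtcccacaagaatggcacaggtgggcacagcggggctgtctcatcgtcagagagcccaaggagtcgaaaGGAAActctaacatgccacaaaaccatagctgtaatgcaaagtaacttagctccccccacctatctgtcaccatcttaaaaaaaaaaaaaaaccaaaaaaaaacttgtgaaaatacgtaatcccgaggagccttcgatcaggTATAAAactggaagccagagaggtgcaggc
Cd3g and Cd3d start 1355 bases apart and are read away from each other, and Cd3e starts 27825 bases from Cd3d. None of the 3 CD3 windows held a TATA box or RUNX letters. The Gzma window held 1 RUNX match and the Gzmb window 2, with 1 AP-1 match in Gzmb. Ifng had a TATA box 30 bases before its start. Of all 32851 promoter windows of this length, 14.0% held the RUNX letters, 55.6% GGAAA, 6.75% AP-1, 7.02% STAT and 12.4% TATAAA, so these matches describe the letters only.

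Between 43.8% and 51.3% of the gene spots in a channel were well above background, and no spot was saturated. Of the macrophage markers, 7 of 7 measured, among them Adgre1 (F4/80) and Csf1r, were well above background in all 16 channels. All 8 B cell markers, Ms4a1 (CD20) included, and 7 of 8 mast cell markers were so too, with Ms4a2 in none. Furin was lower in KO on 6 of 8 arrays, with log2 KO/WT between -0.85 and -0.55, but was 0.00 and 0.33 on the 4 h arrays, so this probe went against the label there. KO at 4 h stands throughout for the libraries labelled KO, and every 4 h direction between genotypes rests on that label. Whether the probe lies in the deleted part of the gene is not given in the sources used here. The mean log2 KO/WT of Furin was -0.44 (SE 0.06, limma adjusted p = 0.022). Lyz2, the locus that carries the LysM Cre, was lower in KO on 8 of 8 arrays (-0.75 to -1.85). On the 4 h arrays, where Furin was not lower, Lyz2 read -1.04 and -1.13.

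Cd2, Cd3d, Cd3e, Cd3g and Lck were well above background in all 16 channels. Cd8a was so in 11, Gzma in 11, Ifng in 10 and Gzmb in 6 channels. Ncr1, the gene of the NK receptor NKp46, was well above background in 0 of 16 channels, and its log2 intensity lay between 6.03 and 6.46 throughout. Of 10 measured NK receptor genes, 5 were likewise in 0 of 16 channels: Klrb1c (NK1.1), Klrc1, Klre1, Klrg1 and Cd226. Of all 37018 genes and transcripts, 21253 were well above background in at least 4 channels, so dim probes were common on the array. Klrd1 (CD94) was well above background in 10 channels, and Cd244a (2B4) and Cd96 in all 16. RNA came from whole cultures, so fewer cells of a type and less RNA per cell cannot be told apart in any value given here.

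**Figure D1:**
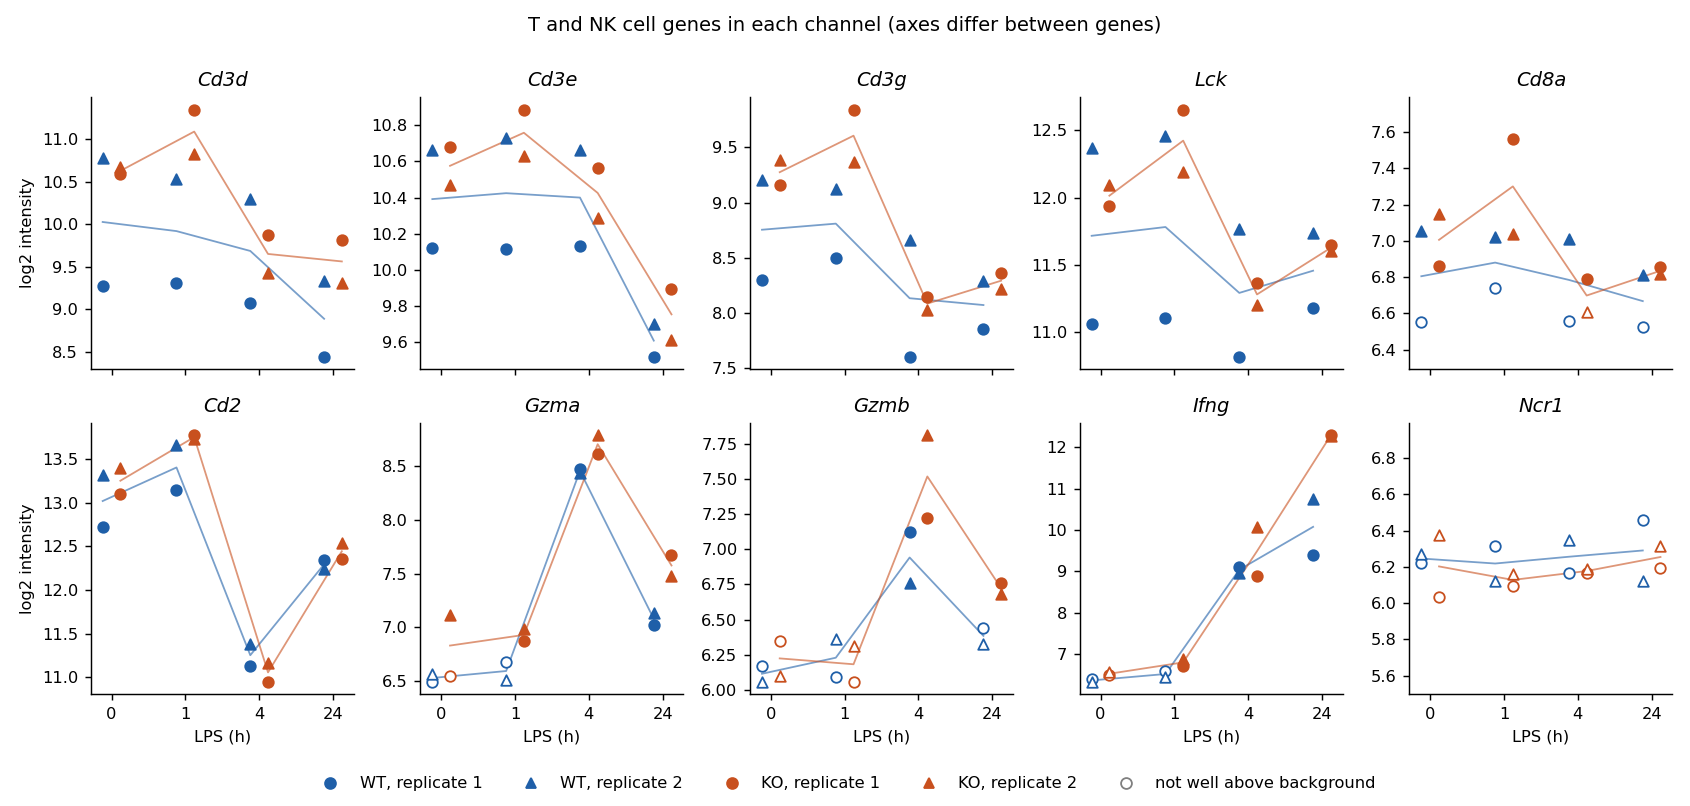
Normalized log2 intensity (vertical axes, scaled per gene) of the 10 genes at 0, 1, 4 and 24 h of LPS (evenly spaced, not to scale in time) for WT (blue) and KO (orange), with circles for replicate 1, triangles for replicate 2, open symbols where the probe was not well above background and lines through the means of 2. Ifng climbed to 12.30 and 12.28 in KO at 24 h, Cd2 dipped to between 10.95 and 11.38 at 4 h in all 4 samples, Gzma was highest at 4 h, and WT replicate 1 was the lowest channel for Cd3d at each time.

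LPS against unstimulated cultures was tested within each genotype by limma's separate-channel fit over 36927 genes, with Benjamini-Hochberg adjustment. At 1 h, 0 of the 10 genes passed in WT, beside 8.51% of all genes tested, and 0 passed in KO, beside 7.48%. At an unadjusted p under 0.05 the counts were 0 in WT and 1 in KO (Cd2), beside 18.3% and 18% of all genes. At 4 h, 4 of 10 passed in WT beside 34.8% of all genes, and 5 of 10 in KO beside 36%. At 24 h, 4 of 10 passed in WT beside 30.5%, and 5 of 10 in KO beside 28.7%. With 10 genes, these counts are close to the share of all genes. By direction, 3 rose and 1 fell in WT at 4 h, where 15.5% of all genes rose and 19.3% fell, and 3 rose and 2 fell in KO, beside 16.2% and 19.8%. After 24 h the WT counts were 2 and 2, beside 13.5% and 17%, and the KO counts were 2 and 3, beside 12.7% and 16%. For the 1 h comparison the shares of all genes were 3.38% up and 5.13% down in WT, and 3.1% and 4.38% in KO. The median log2 change of the 10 genes at 4 h was -0.01 in WT and -0.23 in KO. The cytokine and the granzymes were the genes that rose, and receptor genes those that fell.

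Ifng rose the most of the 10. Over 0, 1, 4 and 24 h its log2 intensity was 6.40, 6.59, 9.12 and 9.40 in WT replicate 1 and 6.32, 6.45, 8.97 and 10.76 in WT replicate 2. KO replicate 1 read 6.48, 6.72, 8.89 and 12.30, and KO replicate 2 read 6.56, 6.88, 10.09 and 12.28. All 8 channels at 4 and 24 h lay above all 8 at 0 and 1 h, and the KO pair at 24 h was the highest of all. The probe was not well above background without LPS in either genotype, so the folds are bounds, set on loess and Aquantile values against the higher, on each array, of the dimmest probe that was well above background and the probe's own signal. For Ifng in KO and Gzma in WT the probe's own signal was the higher, and the lower of the fold on those values and the fitted fold is given. Ifng was at least 6.21-fold higher at 4 h and at least 12.5-fold higher at 24 h in WT (adjusted p = 4.36e-05 and 3e-06). In KO it was at least 7.82-fold higher at 4 h and at least 54.5-fold higher at 24 h (adjusted p = 1.7e-05 and 4.64e-08). The WT bound at 24 h holds for the mean of the replicates, whose log2 changes were 2.99 in replicate 1 and 4.44 in replicate 2. The 1 h change was not significant in either genotype, with adjusted p = 0.915 in WT and 0.816 in KO.

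Gzma and Gzmb, the granzymes, rose to a peak at 4 h. In the same order of times, Gzma read 6.49, 6.67, 8.47 and 7.02 in WT replicate 1 and 6.57, 6.51, 8.44 and 7.13 in WT replicate 2. The KO replicates read 6.54, 6.88, 8.62 and 7.67, and 7.12, 6.98, 8.79 and 7.48. The 4 samples at 4 h, between 8.44 and 8.79, lay above all others. In WT, where the unstimulated probe was not well above background, Gzma was at least 3.80-fold higher at 4 h and at least 1.46-fold higher at 24 h (adjusted p = 2.05e-07 and 0.0131). In KO, where 1 of 2 unstimulated samples was well above background, it rose 3.66-fold at 4 h (log2 1.87, SE 0.15, adjusted p = 2.77e-07) and 1.68-fold at 24 h (log2 0.74, adjusted p = 0.00178). The WT call at 24 h was lost without LPS 24 h replicate 2 (log2 0.50, adjusted p = 0.0957).

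Gzmb was well above background only in the 4 samples at 4 h and in the KO pair at 24 h. Its log2 intensity over the 4 times was 6.17, 6.09, 7.12 and 6.44 in WT replicate 1 and 6.06, 6.37, 6.76 and 6.33 in WT replicate 2. KO replicate 1 gave 6.35, 6.06, 7.22 and 6.76, and KO replicate 2 gave 6.10, 6.31, 7.81 and 6.68. The KO sample of replicate 2 at 4 h was the highest. At 4 h it was at least 1.5-fold higher in WT (adjusted p = 0.00255) and at least 2.02-fold higher in KO (adjusted p = 5.91e-05). At 24 h neither change passed, with log2 0.27 in WT (adjusted p = 0.346) and 0.50 in KO (adjusted p = 0.0601). Granzyme B is also made by mouse mast cells, and the mast cell list had a summed intensity of 8931 to 16201 without LPS and 33878 to 58637 at 4 h, of which Hdc rose (log2 5.11 in WT, 4.95 in KO) and the other 7 did not pass. With the replicate block Mcpt4 also passed in KO (log2 0.63, adjusted p = 0.00384, and 0.0598 without it). Its part in the Gzmb result was not tested.

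Cd2, which encodes an adhesion receptor of T and NK cells that mouse B cells also carry, fell at 4 h and less so at 24 h. WT replicate 1 read 12.72, 13.15, 11.13 and 12.35 over the 4 times, and WT replicate 2 read 13.32, 13.66, 11.38 and 12.24. The KO replicates read 13.11, 13.78, 10.95 and 12.36, and 13.40, 13.73, 11.17 and 12.53. The 4 samples at 4 h did not overlap any other channel. The log2 change at 4 h was -1.77 in WT (SE 0.19, a 3.40-fold drop, adjusted p = 5.04e-06) and -2.20 in KO (a 4.58-fold drop, adjusted p = 6.04e-07). At 24 h it was -0.72 in WT and -0.81 in KO (adjusted p = 0.0105 and 0.00546). The 24 h calls were lost with loess within arrays only (adjusted p = 0.192 in WT and 0.128 in KO). The WT call was also lost without unstimulated replicate 2 (-0.43, adjusted p = 0.163) or LPS 24 h replicate 2 (-0.67, 0.0801), and the KO call without LPS 24 h replicate 1 (-0.72, 0.0652). A second, dimmer Cd2 probe printed on 10 spots moved the same way at 4 h, by -1.30 in WT and -1.65 in KO. The B cell list summed to between 79969 and 130541 without LPS and between 33616 and 50951 at 4 h, and its 8 genes did not move one way: 3 rose and 4 fell in WT, beside 15.5% and 19.3% of all genes, and 2 rose and 5 fell in KO, beside 16.2% and 19.8%. Cd79b, a chain of the B cell receptor complex, fell (-3.04 in WT, -3.52 in KO), and Pax5, a B cell transcription factor, rose (0.54 and 0.44). Their part in the Cd2 result was not tested.

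Of the CD3 chains, Cd3e fell at 24 h in both genotypes, and Cd3g fell in KO at 4 and 24 h. Cd3e read 10.12, 10.12, 10.13 and 9.52 over the 4 times in WT replicate 1 and 10.66, 10.73, 10.67 and 9.70 in WT replicate 2. The KO replicates read 10.68, 10.89, 10.57 and 9.90, and 10.47, 10.63, 10.29 and 9.61. The 4 samples at 24 h lay below all other channels. The 24 h change was -0.78 in WT (SE 0.24, adjusted p = 0.0231) and -0.82 in KO (adjusted p = 0.0184). With loess within arrays only, neither passed (adjusted p = 0.0937 and 0.0723). The WT call was lost without unstimulated replicate 2 (-0.51, adjusted p = 0.251), LPS 24 h replicate 1 (-0.69, 0.141) or LPS 24 h replicate 2 (-0.87, 0.0617). The KO call was lost without unstimulated replicate 1 (-0.72, 0.0949) or LPS 24 h replicate 2 (-0.68, 0.155).

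Cd3g read 8.30, 8.50, 7.60 and 7.85 over the 4 times in WT replicate 1 and 9.21, 9.12, 8.66 and 8.29 in WT replicate 2. The KO replicates gave 9.16, 9.84, 8.14 and 8.36, and 9.39, 9.37, 8.03 and 8.22. The KO channels at 4 and 24 h lay below those without LPS, whereas the WT replicates overlapped at 4 h. In KO the log2 change was -1.19 at 4 h and -0.98 at 24 h (SE 0.34, adjusted p = 0.0133 and 0.0457). The 4 h call was lost without unstimulated replicate 2 (-1.08, adjusted p = 0.0581). The 24 h call was lost without any of the unstimulated or LPS 24 h arrays (-0.87 to -1.10, adjusted p = 0.0656 to 0.185). In WT it was -0.62 and -0.68 and did not pass (adjusted p = 0.203 and 0.172), and whether the genotypes differed is given below with the other differences in response. 

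Cd3d, Lck and Cd8a did not pass at any time in either genotype. Cd3d, the delta chain, read 9.28, 9.30, 9.07 and 8.44 in WT replicate 1, against 10.77, 10.53, 10.30 and 9.33 in WT replicate 2. Its log2 difference at 24 h was -1.14 in WT and -1.06 in KO (SE 0.53, adjusted p = 0.136 and 0.172). The log2 differences from unstimulated cultures lay between -0.73 and 0.41 for Lck and between -0.31 and 0.29 for Cd8a, whose levels ranged from 6.52 to 7.56. For Ncr1, which was never well above background, they lay between -0.07 and 0.05.

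**Figure D2:**
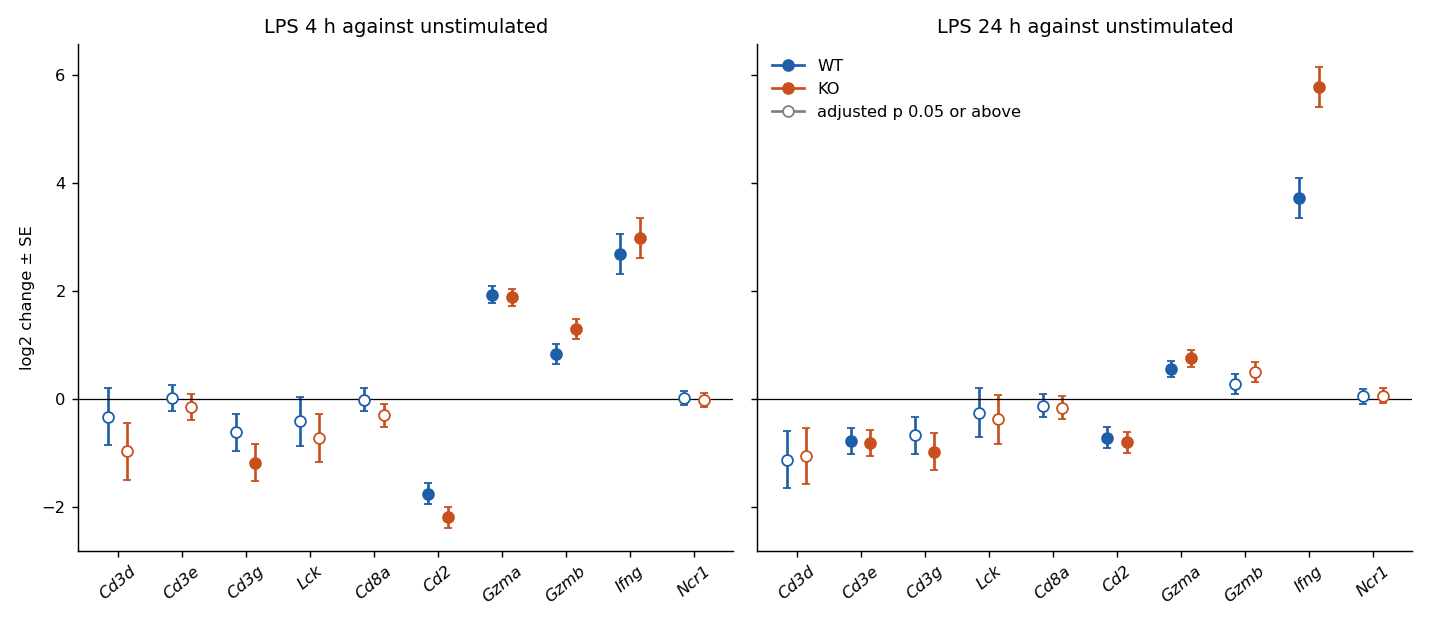
Log2 change (± SE of the fit, 2 samples per group) of each gene at 4 h (left) and 24 h (right) of LPS against unstimulated cultures, in WT (blue) and KO (orange), with filled symbols for an adjusted p under 0.05. Ifng, Gzma and Gzmb lie above 0 at 4 h and Cd2 below it, and Ifng is farther from 0 in KO (5.77) than in WT (3.72) at 24 h. Values of genes that were not well above background without LPS are drawn as fitted.

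Of 25 listed genes of T cell receptor signalling and T cell identity, 20 were well above background in all 16 channels. At 24 h 0 rose and 6 fell in WT, beside 17% of all genes that fell, and 0 rose and 8 fell in KO, beside 16%, with a median log2 change over the 25 of -0.52 in WT and -0.64 in KO, against -0.02 over all genes. At 4 h 2 rose and 3 fell in WT, beside 15.5% and 19.3% of all genes, and 1 rose and 6 fell in KO, beside 16.2% and 19.8%. With the replicate block 6 of the 25 were called in WT and 10 in KO at 4 h, beside 35.9% and 37% of all genes, and 7 and 10 at 24 h, beside 31.4% and 29.9%. Markers of other cell types also fell at 24 h: 5 of 7 for macrophages in each genotype (list median -2.02 in WT, -2.32 in KO), 5 of 8 for mast cells in each (-1.60 and -1.38), and for B cells 4 of 8 in WT and 3 of 8 in KO (-0.65 and -0.51). Their part in the T cell values was not tested. Cd28, the co-stimulatory receptor, fell at both times (-1.46 and -1.82 in WT, -1.84 and -1.94 in KO). Skap1, an adaptor of integrin activation, fell at 24 h (-1.63 in WT, -1.71 in KO), as did Il7r, the interleukin-7 receptor (-1.50 and -1.64). Thy1 (-1.63 in WT and -1.98 in KO) and Cd5 (-1.49 and -1.79) fell at 4 h. The chemokine receptor gene Ccr7 rose at 4 h (1.47 in WT, 1.23 in KO) and fell at 24 h (-0.92 and -0.71), and activated dendritic cells and B cells also use it.

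Among the killing genes outside the 10, Tnfsf10 (TRAIL), a death ligand that macrophages also make, rose by 3.10 in WT and 3.33 in KO at 4 h. Gzmk rose by 0.50 and 0.54 at 4 h, whereas Gzmm fell by -0.87 in WT and -0.73 in KO. Of the 9 listed genes, 2 rose and 1 fell at 4 h in each genotype, and 1 rose and 2 fell at 24 h, where Nkg7 and Gzmm were the genes that fell. These counts are near the shares of all genes (15.5% to 16.2% up and 19.3% to 19.8% down at 4 h, 12.7% to 13.5% up and 16% to 17% down at 24 h). Of the 10 NK receptor genes, Klrd1 and Cd244a fell at both times in both genotypes, Cd96 fell in KO at 24 h (-1.01), and 0 rose. The 2 of 10 that fell at 4 h are near the 19.3% of all genes in WT and 19.8% in KO. With the replicate block 3 of the 10 were called at 24 h in WT and 3 in KO, beside 31.4% and 29.9% of all genes. Klrd1 was not well above background in either KO sample at 4 or 24 h and in 1 of 2 WT samples at each, so its fall has no exact size.

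Of 11 measured genes that drive Ifng transcription, 7 rose and 0 fell at 4 h in each genotype, beside 15.5% of all genes that rose in WT and 16.2% in KO. At 24 h, 4 rose in WT and 5 in KO and 0 fell, beside 13.5% and 12.7% of all genes that rose. The cytokine genes Il15 (4.28 in WT, 4.39 in KO) and Il18 (2.74 and 2.84) rose at 4 h, as did Il12a, which was well above background in 8 of 16 channels. Il12rb1, the shared chain of the interleukin-12 and interleukin-23 receptors, rose by 1.99 in WT and 3.09 in KO at 24 h. Il18rap, a chain of the interleukin-18 receptor, was well above background in 0 of 16 channels. Of 12 genes of the interferon gamma receptor and its targets, 8 rose and 3 fell at 4 h in each genotype, beside 15.5% up and 19.3% down of all genes in WT, and 16.2% and 19.8% in KO. Cxcl10 (9.01 in WT, 8.32 in KO) and Socs1 (5.67 and 5.19) rose the most and the receptor chain gene Ifngr1 fell (-1.12 and -1.20). LPS and type I interferon also induce these targets.

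KO against WT was tested on the log2 ratio within each array by limma over 36947 genes. None of the 10 genes passed at any time, beside 0% of all genes without LPS, 0% at 1 h, 0.0135% at 4 h (0.0108% higher and 0.00271% lower) and 0.0244% at 24 h (0.0135% and 0.0108%). Over the mean of the 4 times none passed either, beside 0.566% (0.244% higher, 0.322% lower). At an unadjusted p under 0.05 the counts were 0, 3, 1 and 2 of 10 at the 4 times and 4 for the mean, beside 5.78%, 5.48%, 4.3% and 3.43% of all genes and, for the mean, 3940 of 36947. The methods' t-test on the same values gave 0 of 10 after Benjamini-Hochberg adjustment at each time and, unadjusted, 0, 0, 0 and 2 of 10 (Gzma and Gzmb at 24 h), beside 4.58%, 4.75%, 3.05% and 4.1% of all genes. The median log2 KO/WT of the 10 was 0.22 without LPS, 0.34 at 1 h, -0.02 at 4 h and 0.20 at 24 h, with medians over all genes near 0. The ratios of same-numbered replicates deviated together, so the fit with a replicate term (the block) is given beside each call that it changed. This term takes the mean difference between the replicates out of the error. Its p-values therefore do not measure how far the replicates disagreed, and they count the 4 times of a replicate as separate. With the replicate term 1, 2, 0 and 2 of the 10 passed at the 4 times and 4 for the mean. The shares of all genes were 1.06%, 0.574%, 0.566%, 0.585% and 5.99%.

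Ifng at 24 h was the greatest KO to WT difference of the 10. The log2 KO/WT was 2.91 in replicate 1 and 1.52 in replicate 2, and on each array both spots of the probe lay above 0 (SD over spots 0.0887 and 0.0951). KO channels were 12.30 and 12.28, above the WT channels of 9.40 and 10.76, and the groups did not overlap. The mean ratio of 2.22 (SE 0.34, a 4.64-fold difference) missed the threshold (adjusted p = 0.135) and passed with the replicate block (adjusted p = 0.00929). At 4 h the replicates disagreed in sign, at -0.22 and 1.12. Without LPS they were 0.08 and 0.24, where the probe was not well above background in either genotype. At 1 h only the KO pair was well above background, which gives a bound of at least 1.20-fold higher in KO. The 1 h difference did not pass (log2 0.28, SE 0.34, limma unadjusted p = 0.436). The response to LPS at 24 h was 2.05 greater in KO than in WT (SE 0.49, unadjusted p = 0.00251, adjusted p = 0.726, and 0.132 with the replicate block). The mean ratio over the 4 times was 0.78 (adjusted p = 0.107, and 0.0147 with the block).

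Of the 11 drivers of Ifng, 10 had a mean log2 KO/WT above 0 over the 4 times (median 0.23), with 0 called and 5 called with the block. Of the 12 receptor and target genes, 11 were above 0 (median 0.14), with 0 called and 4 called with the block. Of all genes, 5.99% were called with the block for this mean. The log2 KO/WT of Il12rb1 at 24 h was 1.40 and 1.07. Over the 4 times its mean was 0.36 (adjusted p = 0.114, and 0.0184 with the block). The transcription factor genes Stat4 and Tbx21 had means of 0.45 and 0.33 (adjusted p = 0.0545 and 0.0764, and 0.000743 and 0.00724 with the block). Cxcl9 had a mean of 0.31 (adjusted p = 0.0574, and 0.00497 with the block).

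Gzma was above 0 on 8 of 8 arrays. Over the 4 times its log2 KO/WT was 0.05, 0.20, 0.15 and 0.65 in replicate 1, and 0.55, 0.47, 0.35 and 0.35 in replicate 2. The mean was 0.35 (SE 0.07, a 1.27-fold difference, adjusted p = 0.0812, and 0.00766 with the block). No single time passed, and without LPS and at 1 h the WT pair was not well above background. Gzmb was higher in both KO samples at 4 h (ratios 0.10 and 1.05) and at 24 h (0.32 and 0.36). The bound at 24 h was at least 1.21-fold. Neither time passed (limma adjusted p = 0.898 at 4 h, unadjusted p = 0.099 at 24 h). Of the 8 mast cell markers, 7 had a mean log2 KO/WT above 0 (median 0.47). None was called without the block and 6 were called with it, beside 5.99% of all genes. For 5 of the 8 the ratio was higher in replicate 2 at all 4 times, and the list median of replicate 1 minus replicate 2 was -0.69. On the 4 h arrays the 8 lay between -0.18 (Ms4a2) and 1.42 (Fcer1a) in replicate 2, and between -0.53 (Cma1) and 0.43 (Hdc) in replicate 1. Their part in the granzyme ratios was not tested.

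In the mean over the 4 times, Cd3d and Cd3g had greater KO to WT ratios than Cd3e, Lck, Cd8a and Cd2. Both were higher in replicate 1 than in replicate 2, but in replicate 1 the mean of Lck (0.86) lay above that of Cd3g (0.81). At 4 h Cd3d (-0.04) and Cd3g (-0.05) lay below Lck (-0.01) and Cd3e (0.03). The log2 KO/WT of Cd3d over the 4 times was 1.31, 2.04, 0.81 and 1.38 in replicate 1, and -0.11, 0.29, -0.88 and -0.03 in replicate 2. Its mean of 0.60 had an SE of 0.27 (adjusted p = 0.486) and passed with the block (adjusted p = 0.00012), as did the ratios without LPS (0.0166), at 1 h (0.00357) and at 24 h (0.00909). Cd3g gave 0.86, 1.35, 0.54 and 0.51 in replicate 1, and 0.18, 0.25, -0.64 and -0.07 in replicate 2. Its mean was 0.37 (adjusted p = 0.464, and 0.00384 with the block), and the 1 h ratio passed with the block (0.0193). Without unstimulated replicate 1 the Cd3d ratio of unstimulated cultures turned to -0.11, and without LPS 24 h replicate 1 that at 24 h turned to -0.03.

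Cd3d, Cd3e, Cd3g, Lck and Cd8a each had a higher KO to WT ratio in replicate 1 than in replicate 2 at all 4 times, by 1.56, 0.73, 0.88, 1.17 and 0.50 in the mean. Cd2 was higher in replicate 1 at 3 of 4 times, by 0.15 in the mean. The same held at all 4 times for 17 of 25 other T cell genes, beside 18.7% of all genes, with a list median of 0.59, among them Skap1 (1.45), Lef1 (1.41) and Zap70 (1.40). Ctla4, also of the list, was higher in replicate 2 at all 4 times (-0.51). WT replicate 1 was the low channel: for Lck it was 11.06 without LPS, against 12.37 in WT replicate 2 and 11.93 and 12.09 in KO. Gzma, Gzmb, Ifng and Ncr1 did not share it, with differences of -0.17, -0.21, -0.11 and -0.21. Mast cell markers went the other way, with 5 of 8 higher in replicate 2 at all 4 times, beside 15% of all genes, and a median of -0.69, and the medians of the B cell and macrophage lists were 0.11 and 0.07. The dye orientation and the cell make-up of a replicate cannot be told apart in this design.

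**Figure D3:**
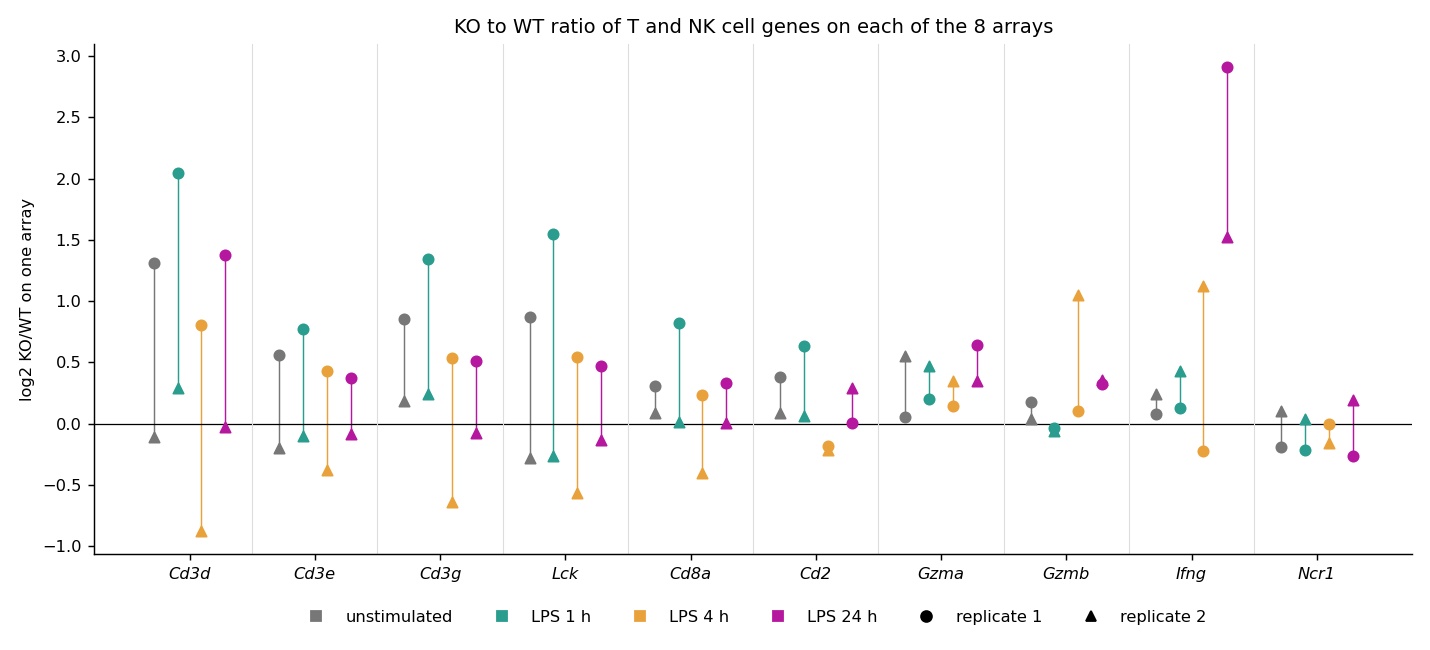
Log2 KO/WT on each of the 8 arrays for the 10 genes, coloured by time, with circles for replicate 1 (KO in Cy5), triangles for replicate 2 (KO in Cy3) and a line joining the 2 arrays of a time. Circles lie above triangles at all 4 times for Cd3d, Cd3e, Cd3g, Lck and Cd8a, and the 24 h arrays of Ifng lie at 2.91 and 1.52.

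**Figure D4:**
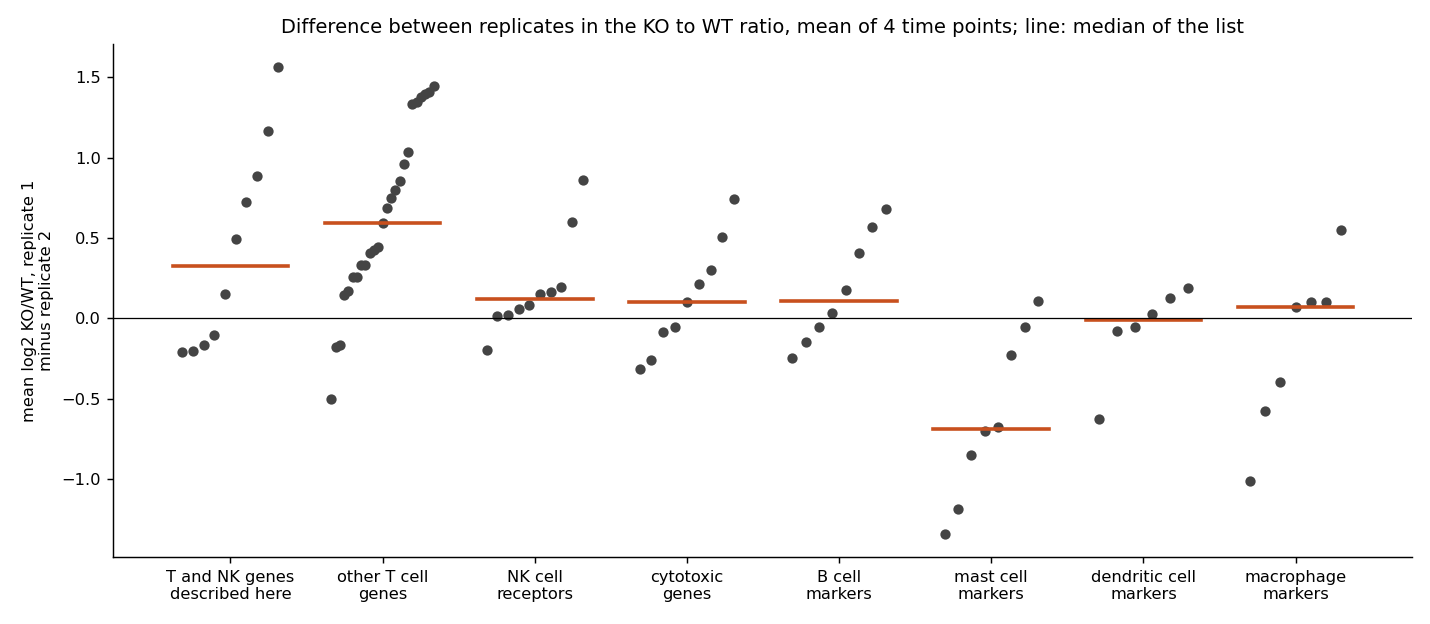
Mean log2 KO/WT of replicate 1 minus that of replicate 2, over 4 times, for each gene (dots, ordered within a list) of 8 lists, with the list's median as a line. The other T cell genes have a median of 0.59 and mast cell markers of -0.69.

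The differences between KO and WT in the response to LPS were tested for all 10 genes at 1, 4 and 24 h. None passed at any of the 3 times, beside 0% of all genes at each time, and with the replicate block none of the 10 passed either. Unadjusted, 1 of 30 had a p under 0.05, Ifng at 24 h, beside 1.39%, 2.9% and 3.33% of all genes at the 3 times. For Cd3g, which passed in KO alone, the difference at 4 h was -0.57 (SE 0.46, adjusted p = 1.00), and for Cd2 it was -0.43 (SE 0.21, adjusted p = 1.00). Among the 25 other T cell genes, the log2 KO/WT was above 0 for 24 without LPS and for 24 after 1 h. It was above 0 for 9 after 4 h and for 22 after 24 h, and 0 of the 25 were called at any time. With the replicate block 1, 9, 0 and 1 of the 25 were called at the 4 times and 12 for the mean, beside the 1.06%, 0.574%, 0.566%, 0.585% and 5.99% of all genes given above. B cell markers went the same way, with 8, 8, 1 and 8 of 8 above 0 at the 4 times, and their part in the T cell ratios was not tested.

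Across the 16 channels, which share arrays, dyes and treatment, the genes of the set followed each other to different degrees. Pearson's r of log2 intensity was 0.93 for Cd3d with Cd3g, 0.86 for Cd3d with Cd3e, 0.73 for Cd3e with Cd3g, 0.62 for Cd3e with Lck, 0.90 for Lck with Cd3g, 0.90 for Lck with Cd8a and 0.90 for Gzma with Gzmb. Cd2 and Gzma were opposed (r = -0.89). Among genes well above background in at least 8 channels, those most like the mean of the 3 CD3 chains were Bcl11b (0.98), Lat (0.97), Vipr1 (0.97), Tcf7 (0.96) and Cd6 (0.96). Bcl11b and Tcf7 encode transcription factors of T cells, and Lat the adaptor next to the receptor. Those most like Ifng were Il12rb1 (0.98), Ebi3 (0.97), Cyria (0.97), 1110032F04Rik (0.97) and Apol9a (0.96). Gzmb was well above background in 6 of the 16 channels, so its likeness rests mostly on values near background. Those most like it were Carmil1 (0.935), Rngtt (0.934), F830016B08Rik (0.930), 9330179D12Rik (0.929) and Fap (0.925).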

How the data were processed

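The arrays were Agilent 2-colour mouse gene expression arrays, 8 in all, on 1 slide. Per the file headers, Feature Extraction 10.7.3 measured each spot, and the median foreground and background intensities in Cy3 and Cy5 were used here as deposited. The deposited series table holds the authors' log2 ratios of Cy5 over Cy3, made with limma. Its columns followed the ratios computed here (r 0.987 to 0.996), so it served as an alternative. Groups and times came from the sample titles. The growth protocol in the labels names a 4 h stimulation for every sample.

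Intensities were background corrected (normexp, offset 50), loess normalized within arrays with control and flagged spots at weight 0, and quantile normalized between arrays in limma 3.58.1 (R 4.3.3, statmod 1.5.0). Flagged spots were left out. Probes were named through RefSeq accessions, and the brightest probe stood for a gene. Genes whose log2 intensity averaged below 6 were not tested. KO against WT was fitted to within-array log2 ratios (lmFit and eBayes, 4 residual degrees of freedom). LPS against unstimulated cultures was fitted by separate channels (lmscFit, within-spot correlation 0.0968 from 5000 genes). P-values were adjusted by Benjamini-Hochberg over all genes, with a threshold of 0.05. A probe with several spots counted as well above background where most of its spots were. Named genes were all 10 members, up to 3 called genes with the largest change per list and comparison, any gene a result turned on, Furin, and the 5 genes most correlated with each of 3 profiles. Ifngr1, Stat4, Tbx21, Cxcl9, Lyz2, Lef1, Zap70, Ctla4, Mcpt4 and Pax5 were chosen after their values were seen, and marker genes are named for their detection. Scripts were tested on simulated data. The number of arrays limits the precision.

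Same-numbered replicates deviated together: the difference between replicates in log2 KO/WT correlated across genes between every pair of times (r 0.475 to 0.679, 6 pairs). The numbers coincide with the dye orientation. Members and lists were chosen with earlier results of these data known. Probe sequences were not used here.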

Additional observations from a re-analysis of the deposited data

How the results depend on the processing

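With the replicate block in the KO against WT fit, the count of the 10 genes that passed went from 0 to 1 without LPS (Cd3d), to 2 at 1 h (Cd3d and Cd3g), to 2 at 24 h (Cd3d and Ifng) and to 4 over the mean of times (Cd3d, Cd3g, Gzma and Ifng). Over all genes the mean over times gave 209 calls in the main analysis, 2212 with the block, 0 with Agilent processed signals, 22 with a normexp offset of 16, 129 with the mean over probes and 137 with a filter on probes well above background. Leaving out 1 array at a time, it was 1 (without unstimulated replicate 1) to 159 (without LPS 24 h replicate 1). The block left the counts of the 10 in the LPS comparisons as they were. The methods' t-test, unadjusted, gave 2 of 10 at 24 h, beside 4.1% of all genes. With loess within arrays only, the LPS 24 h count was 2 in WT and 2 in KO, against 4 and 5. Leaving out 1 array at a time, it was 1 to 5 in WT, lowest without LPS 24 h replicate 2, and 3 to 6 in KO. The Cd3d ratio of unstimulated cultures ranged from -0.11, without unstimulated replicate 1, to 1.31, and that at 24 h from -0.030, without LPS 24 h replicate 1, to 1.38. The cause was not tested. Of 552 refits of these genes' called or block-called changes and mean ratios, 518 kept direction and side of the threshold. Depth in the sense of signal over background limited Ncr1, Gzmb, Gzma, Cd8a and Ifng.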
